A study of Arabidopsis thaliana with 3 samples.

Results

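JMJ28 was mapped over the long noncoding RNA (lncRNA) and antisense RNA genes of Arabidopsis thaliana. The genes were chosen by annotation alone: every nuclear gene that the TAIR10.1 gene table of RefSeq types as lncRNA or antisense_RNA. This gave 3559 of 37899 nuclear genes, with 3480 typed lncRNA and 79 typed antisense_RNA, and they are called RNA genes here. Of them, 1500 overlapped a protein-coding gene by 1 bp or more and 2059 did not. All 79 antisense_RNA genes were in the overlapping class. They were short, with a median length of 338 bp (range 96 to 9515 bp), and 3235 were under 1000 bp.

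The plants were Col-0 seedlings carrying JMJ28 fused to a triple FLAG tag under the JMJ28 promoter (JMJ28pro::JMJ28:3xFLAG), grown in long days at 22 °C and taken at 14 days. Chromatin recovered with the tag was sequenced in 2 ChIP libraries, described as biological replicates, beside 1 input library of the same genotype. The labels name no host background beyond the ecotype. An untagged control was not analysed, so recovery that does not depend on JMJ28 cannot be told apart from JMJ28 sites. What was analysed is a list of 18410 peak summits, the positions where the authors' peak caller placed the top of each peak. Of these, 18368 were on the 5 nuclear chromosomes. No depth, no value per library and no spread between replicates was analysed, so no p-value is given. Intervals are exact 95% intervals of counts and cover counting error only, and neighbouring genes are not independent. A list of summits holds no expression level, so the tissue label could not be checked against marker genes.

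Long noncoding RNAs are transcripts without a long open reading frame. Some run across or beside protein-coding genes, and those on the opposite strand are called natural antisense transcripts. In Arabidopsis the antisense transcripts of FLC, the MADS-box repressor of flowering, are the textbook case: they have been studied for their part in silencing FLC during winter cold. JMJ28 belongs to the JmjC proteins that remove methyl groups from lysine 9 of histone H3, a mark of silenced chromatin. The gene table gives neither strand nor exons, so an overlapping lncRNA gene could not be called sense or antisense, and starts could not be told from ends.

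RNA genes that overlap a protein-coding gene held JMJ28 summits far more often than those that do not. A summit lay inside 487 of the 3559 RNA genes (13.7%, interval 12.6 to 14.9), where 36.9% of all nuclear genes and 47.7% of protein-coding genes had one. In the overlapping class 355 of 1500 had a summit (23.7%, interval 21.5 to 25.9). In the non-overlapping class 132 of 2059 had one (6.41%, interval 5.39 to 7.56). Of these 2059, 171 overlapped an annotated gene of another type, and 24 of them had a summit (14.0%, interval 9.20 to 20.2), against 108 of the other 1888 (5.72%, interval 4.72 to 6.87). A single summit was found in 319 overlapping genes, 2 summits in 29, 3 in 6 and 4 in 1. Among non-overlapping genes 130 had 1 summit and 2 had 2.

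RNA genes were far shorter than protein-coding genes, whose median length was 2078 bp, and the share with a summit rose with length in both classes. Overlapping RNA genes of 1000 bp or more had a summit in 176 of 297 cases (59.3%), and shorter ones in 179 of 1203 (14.9%). Non-overlapping RNA genes of 1000 bp or more had one in 12 of 27 cases (44.4%, interval 25.5 to 64.7), and shorter ones in 120 of 2032 (5.91%). Protein-coding genes with the length mix of the overlapping class would have a summit in 18.1% of cases, below the 23.7% seen. With the length mix of the non-overlapping class they would have one in 10.02%, above the 6.41% seen. From 200 to below 300 bp, 24 of 917 non-overlapping genes had a summit (2.62%, interval 1.68 to 3.87) against 19 of 226 protein-coding genes (8.41%, interval 5.14 to 12.8). This was the only length range in which these intervals lay apart. From 400 to below 600 bp the shares were 9.34% and 9.36%. For the overlapping class the intervals lay above those of protein-coding genes from 400 to below 600 bp and from 1000 to below 2000 bp, and overlapped them elsewhere.

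**Figure D1:**
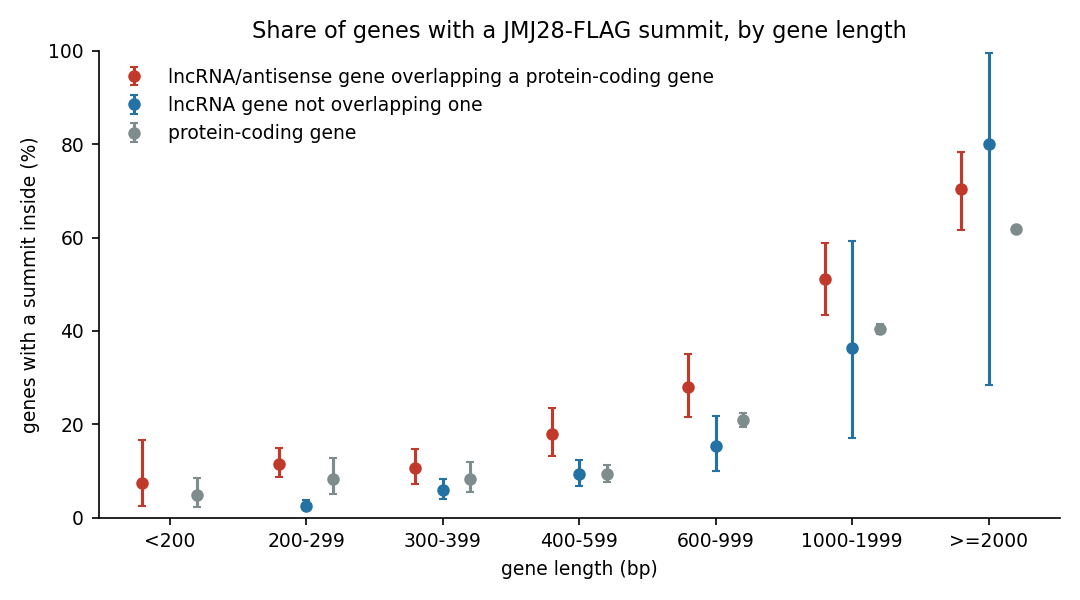
Share of genes with a summit inside (y axis, percent) by gene length (x axis, bp), for RNA genes that overlap a protein-coding gene, RNA genes that do not, and protein-coding genes. Points are shares and bars exact 95% binomial intervals. The overlapping class lies above protein-coding genes in every length range, from 7.46% against 4.80% below 200 bp to 70.4% against 61.7% at 2000 bp or more, and no non-overlapping gene was shorter than 200 bp.

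Set against summits spread evenly along each chromosome, the overlapping class held clearly more than its length gives, and the non-overlapping class about as many. Overlapping RNA genes covered 1.14 Mb, or 0.954% of the annotated span, and held 396 summits, where even placement gives 174.9. The ratio was 2.26 (interval 2.05 to 2.50), above the 1.62 of protein-coding genes (interval 1.60 to 1.65). Non-overlapping RNA genes covered 0.706 Mb and held 118 summits against 108.3, a ratio of 1.09 whose interval (0.902 to 1.30) includes 1. With RNA genes counted as non-overlapping when under 50% of their length is in protein-coding genes, that ratio was 1.22 and its interval (1.03 to 1.42) did not include 1. Within gene-rich windows alone the ratios were 1.99 and 1.02. Together the RNA genes held 513 summits, 20 of them inside 2 or more RNA genes and 1 inside a gene of each class.

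Most summits of the overlapping class lay on bases that the RNA gene shares with the protein-coding gene. Of the 396 summits, 339 (85.6%) were on shared bases, which made up 83.6% of the length of these RNA genes. The shared bases carried 356.8 summits per Mb (interval 319.9 to 396.9), against 249.7 per Mb on protein-coding bases without an RNA gene, a ratio of 1.43 (interval 1.28 to 1.59). The parts of the same RNA genes that reach outside protein-coding genes carried 57 summits, or 305.0 per Mb (interval 231.0 to 395.1). That density was close to the shared part and 7.95 times that of all bases without any annotated gene (38.4 per Mb). Position was not matched in this ratio, and unannotated bases were denser near gene ends. Below 100 bp from a protein-coding gene end the unshared parts carried 190.8 per Mb (interval 91.5 to 350.8) against 136.7 on unannotated bases. From 200 to below 300 bp the values were 441.2 (interval 220.2 to 789.4) and 58.1. In 47 overlapping RNA genes all summits were outside protein-coding genes, and in 35 with a summit no overlapped gene had one.

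**Figure D2:**
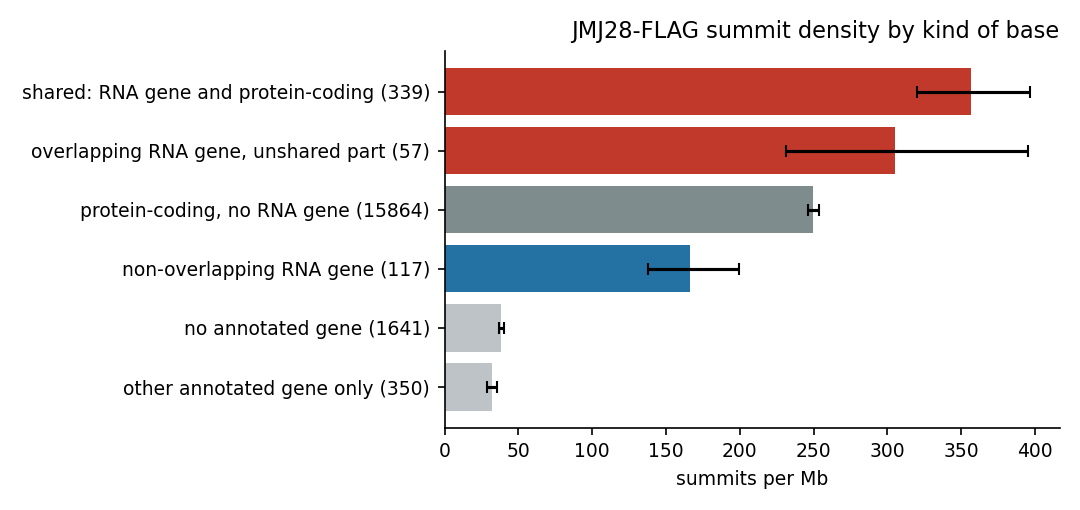
Summits per Mb (x axis) on 6 kinds of base, with the number of summits in brackets; bars are densities with exact 95% Poisson intervals. Shared bases (356.8) and the unshared part of overlapping RNA genes (305.0) are the highest, protein-coding bases without an RNA gene follow (249.7), non-overlapping RNA genes reach 166.5, and bases of no gene or another gene type lie at 38.4 and 31.8.

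Measured against protein-coding bases without an RNA gene, the excess on shared bases was smaller, but still present, once position was matched. Summits of this list gather just inside gene ends. Protein-coding bases without an RNA gene carried 587.0 per Mb from 200 to below 300 bp from an end, and 29.9 at 2000 bp or more. Weighted to the same distance from the nearer gene end, the ratio was 1.21 (interval 1.08 to 1.35). Against the unshared bases of the same protein-coding genes, without matching of position, it was 1.29 (interval 1.16 to 1.43). Taken by distance range, the shared bases of these genes were behind below 300 bp and ahead from 300 to 1000 bp. The intervals overlapped in every range. Within 100 bp of an end the shared bases carried 355.8 summits per Mb and the unshared bases 443.1. At 100 to 200 bp the values were 703.9 and 749.0, and at 200 to 300 bp 754.4 and 767.8. At 300 to 500 bp they were 457.8 (interval 366.2 to 565.4) and 384.4 (interval 326.3 to 449.9). At 500 to 1000 bp they were 184.4 and 151.7. No weighted ratio was taken within these genes. An excess over their unshared bases at matched position was therefore not shown.

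The protein-coding genes that carry an overlapping RNA gene had summits more often than others. There were 1594 such partner genes, of which 953 had a summit inside (59.8%, interval 57.3 to 62.2). Among the other 25850 protein-coding genes the share was 47.0% (interval 46.4 to 47.6), and 49.1% with the partners' length mix. When protein-coding genes were divided by length into 10 equal groups, partners were ahead in 9. The widest gap was among genes with a median near 1 kb (46.2% against 23.3%), and in the longest group partners were behind (62.1% against 68.6%). An overlapping RNA gene had a summit in 315 of 903 cases (34.9%) when its main partner, the gene it shares most bases with, had one, and in 40 of 597 (6.70%) when it had none. Shared bases count for both genes, so these values are tied by construction.

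For non-overlapping RNA genes the share differed little with the neighbour's state. With a summit in the nearest protein-coding gene, 53 of 753 had one themselves (7.04%, interval 5.32 to 9.11). Without it, 79 of 1306 did (6.05%, interval 4.82 to 7.48). It was higher close to a protein-coding gene: with one at 500 bp or less, 68 of 711 had a summit (9.56%, interval 7.50 to 11.97), and with the nearest at over 500 and up to 1000 bp, 24 of 526 (4.56%, interval 2.94 to 6.71). Farther away the share stayed level, with 20 of 432 up to 2000 bp (4.63%) and 20 of 390 beyond (5.13%).

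Although their share was low, non-overlapping RNA genes carried more summits per base than the unannotated DNA around them. They carried 167.2 summits per Mb (interval 138.4 to 200.3). Unannotated bases within 1000 bp of them carried 40.6 (interval 33.1 to 49.3), a ratio of 4.12. Distance to a gene end was not matched in this ratio. The RNA genes in it include the 171 that overlap an annotated gene of another type, which had summits more often. Far from protein-coding genes the density fell more on unannotated DNA than on RNA genes. At 2000 bp or more from a protein-coding gene end, bases of non-overlapping RNA genes carried 21 summits in 0.163 Mb, or 128.5 per Mb (interval 79.6 to 196.5). Unannotated bases at that distance carried 74 summits in 12.6 Mb, or 5.85 per Mb (interval 4.60 to 7.35), a ratio of 22.0. In gene-rich windows alone the ratio at that distance was 12.6, with 158.8 against 12.6 per Mb. A high density near protein-coding genes was not particular to RNA genes: from 200 to below 300 bp from a gene end, bases of other annotated gene types carried 457.2 per Mb and those of non-overlapping RNA genes 396.1, and from 300 to below 500 bp 219.6 and 216.7. At 2000 bp or more the other types together carried 7.61 per Mb over all windows. They include 3917 pseudogenes, of which 2.27% had a summit. No separate density was taken there for ncRNA, misc_RNA or transcribed pseudogenes, so the far density cannot be called particular to RNA genes.

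**Figure D3:**
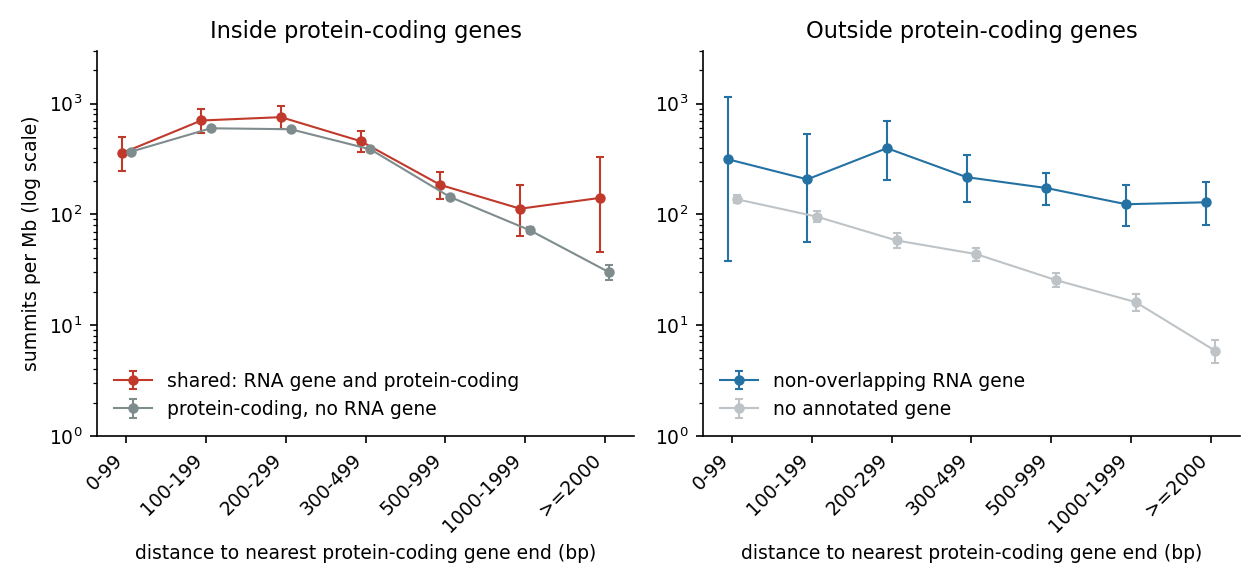
Summits per Mb (y axis, log scale) by distance to the nearest protein-coding gene end (x axis, bp), inside protein-coding genes for shared bases and bases without an RNA gene (left) and outside them for non-overlapping RNA genes and unannotated bases (right); bars are exact 95% Poisson intervals. On the left the lines nearly meet below 100 bp, with 355.8 and 368.3. From 200 to below 300 bp they read 754.4 and 587.0, with overlapping intervals, and they are apart at 2000 bp or more, with 140.8 (5 summits) and 29.9. On the right they are farther apart, with 396.1 and 58.1 from 200 to below 300 bp and 128.5 and 5.85 at 2000 bp or more. The point for RNA genes below 100 bp rests on 2 summits.

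The way an RNA gene lies on its partner went with its share, along with its length. RNA genes wholly inside 1 protein-coding gene had a summit in 165 of 977 cases (16.9%, median length 341 bp). Those across 1 gene end had one in 104 of 379 (27.4%, 407 bp). Those across the ends of 2 or more genes had one in 22 of 51 (43.1%, 1002 bp), and those spanning a whole protein-coding gene in 64 of 93 (68.8%, 2435 bp). Lengths differ between these arrangements, so arrangement and length cannot be told apart here. The 79 antisense_RNA genes, with a median length of 190 bp, had a summit in 10 cases (12.7%, interval 6.24 to 22.0). Under 300 bp their share was 5 of 68 (7.35%, interval 2.43 to 16.3), and that of overlapping lncRNA genes 50 of 434 (11.5%, interval 8.67 to 14.9).

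Other noncoding gene types gave a frame for these shares. Genes typed ncRNA, which hold many of the well-studied noncoding loci, had a summit in 43 of 221 cases (19.5%, median length 760 bp). Genes typed misc_RNA had one in 71 of 508 (14.0%), microRNA genes in 3 of 326 (0.920%) and snoRNA genes in 14 of 287 (4.88%). Pseudogenes, with a median length of 2043 bp, had one in 89 of 3917 (2.27%), and transcribed pseudogenes, with a median of 781.5 bp, in 112 of 926 (12.1%). By chromosome, the share of overlapping RNA genes ranged from 17.4% on chromosome 3 to 27.7% on chromosome 5, and that of non-overlapping ones from 3.69% on chromosome 2 to 8.41% on chromosome 5. In 37 gene-poor windows, 3 of 37 overlapping and 2 of 196 non-overlapping RNA genes (1.02%) had a summit.

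Scores of summits in RNA genes were near those of the whole list. The score is the authors' −log10 value (of p or q, not stated which) per summit, a strength of evidence and not an occupancy level. The median was 10.6 for the overlapping class (396 summits, range 1.66 to 762, 95% interval of the median 9.07 to 11.6) and 9.07 for all nuclear summits. The median was 7.11 for the non-overlapping class (118 summits, range 1.66 to 205.8, interval 6.32 to 9.67). Neither interval lay apart from the median of the whole list. For non-overlapping RNA genes that lay wholly more than 1000 bp from a protein-coding gene, the median was 5.54 (34 summits, interval 4.87 to 7.36). This was below the median of the whole list. The subset leaves out distant summits in RNA genes that reach closer, among them those of AT1G60505 (73.3, 2762 bp from a gene end) and AT1G34844 (57.3, 1059 bp). Scores above 100 were reached by 10 of the 396 summits of the overlapping class and 1 of the 118 of the other. In the whole list 294 of 18368 nuclear summits reached them. The counts in RNA genes are too small to set the classes apart.

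**Figure D4:**
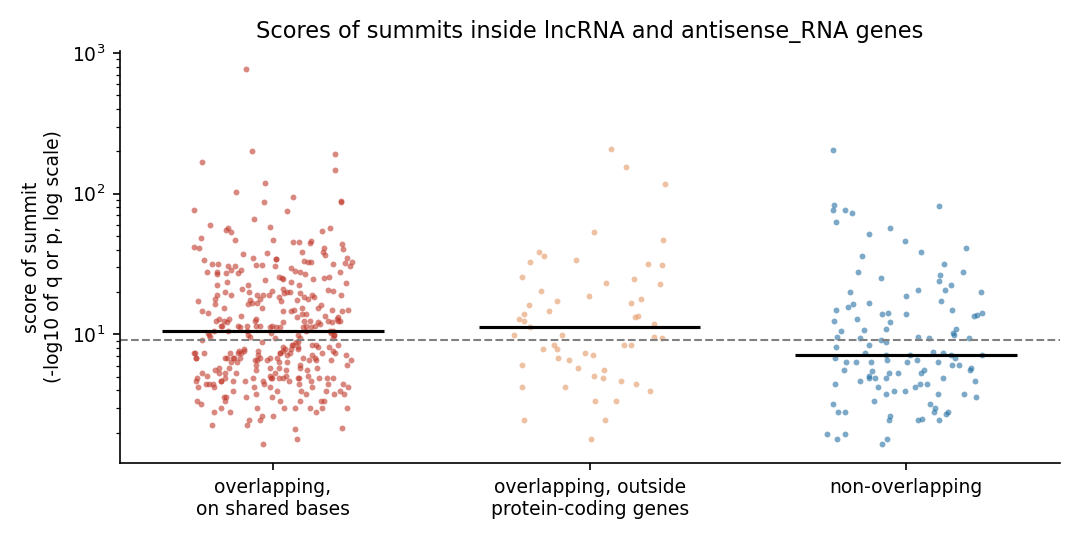
Score of each summit inside RNA genes (y axis, −log10 of q or p, log scale) for shared bases, for the part of overlapping RNA genes outside protein-coding genes, and for non-overlapping RNA genes; each point is a summit, solid lines are medians (10.6, 11.2 and 7.11) and the dashed line is the median of all nuclear summits (9.07). The single summit above 700 is the one inside AT5G01675 and FLC.

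The highest score in any RNA gene was at FLC. AT5G01675, an lncRNA gene of 6230 bp, spans the whole of FLC, so that 97.4% of it is shared. Its 2 summits, at positions 3178918 and 3173421 of chromosome 5 (TAIR10, counted from 1), scored 762 and 45.3. The stronger one lay 682 bp from the nearer end of AT5G01675 and 530 bp inside FLC, and the weaker one 50 bp and 39 bp inside. Both are therefore near the ends of the pair, and both belong to FLC as much as to the RNA gene. The antisense transcripts of FLC are known as COOLAIR, and the gene table gives AT5G01675 no symbol.

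Among the 10 overlapping RNA genes with the highest scores, 3 had their summit outside the partner. In the whole class 57 of 396 summits lay outside protein-coding genes, and 10 genes are too few to set against that. AT1G56165 reaches over one end of MYB72, which encodes a root MYB factor of the iron deficiency response. Its summit (chromosome 1, position 21024392, score 207.5) lay 10 bp inside the far end of the RNA gene. MYB72 itself had no summit, and the end of NF-YC2, a subunit gene of the NF-Y transcription factor, was 90 bp away. AT1G16489 spans MYB58, which encodes an activator of lignin synthesis genes, and its summit (chromosome 1, position 5629264, score 155) lay 81 bp inside the RNA gene and outside MYB58. Another protein-coding gene, AT1G16480, was nearer to this summit (251 bp) than MYB58 (391 bp). AT5G48775 covers nearly all of AT5G48770, and its summit (chromosome 5, position 19773058, score 117) lay 59 bp outside that gene.

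In the remaining members of this group the summit was on shared bases. AT1G08387 bridges AT1G61420 and AT1G61430, with a summit scored 201.4 inside AT1G61420 (chromosome 1, position 22664237). AT4G26582 overlaps OPT5, an oligopeptide transporter gene, with its summit 276 bp inside OPT5 (chromosome 4, position 13414249, score 191.9). AT1G60525 spans DRP4A, a dynamin-related gene, with a summit 121 bp inside it (chromosome 1, position 22301046, score 167). AT1G04773 lies wholly inside AT1G10120, which the table also names CIB4, a bHLH protein that interacts with the blue-light receptor CRY2. Its summit scored 147 (chromosome 1, position 3306010) and lay 946 bp from the gene end, deep for this list. AT5G08445, inside AT5G56220, had a summit scored 120.0 (chromosome 5, position 22754478), and AT4G38552, over AT4G38550, one scored 103 (chromosome 4, position 18028746).

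**Figure D5:**
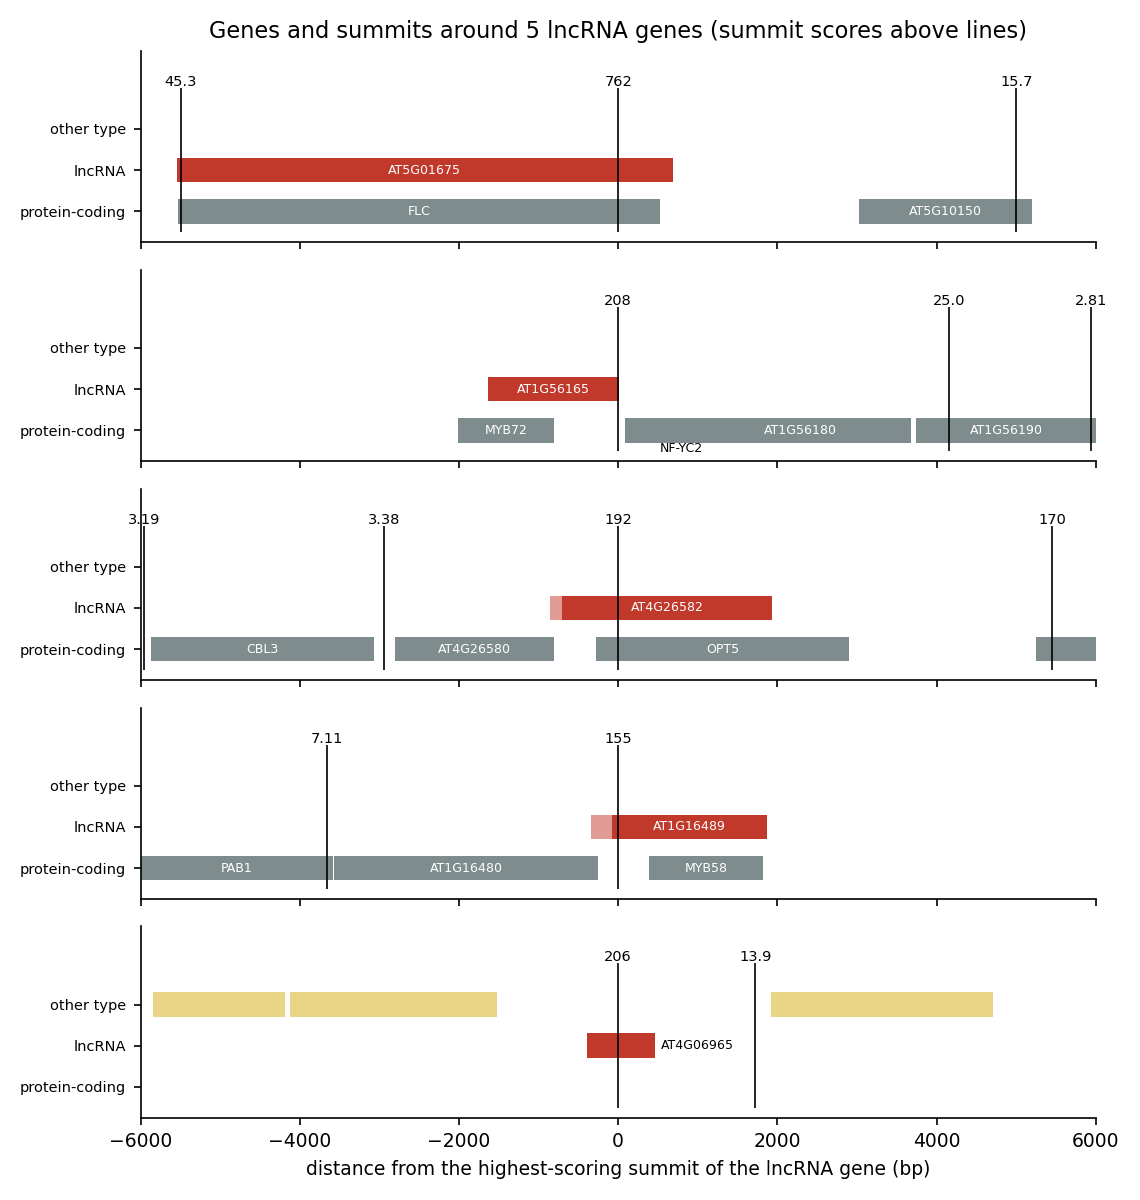
Genes and summits around 5 lncRNA genes: AT5G01675 at FLC, AT1G56165 at MYB72, AT4G26582 at OPT5, AT1G16489 at MYB58 and AT4G06965, from top to bottom. The x axis is the distance in bp from the highest-scoring summit of the lncRNA gene; bars are protein-coding genes (grey), lncRNA genes (red, paler where not the named one) and other types (yellow), and vertical lines are summits with their scores. At AT1G56165 and AT1G16489 the strong summit (207.5 and 155) lies outside the overlapped MYB gene, and at AT4G06965 (205.8) the nearest protein-coding gene lies beyond the plotted range.

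Among non-overlapping RNA genes one summit stood far above the others. AT4G06965, of 846 bp, had a summit scored 205.8 at position 11115883 of chromosome 4, which is equal to or above 99.7% of nuclear scores. It lay 386 bp inside the gene, and the nearest protein-coding gene, AT4G20735, was 6221 bp away from the RNA gene and had no summit. The annotated genes nearest to it, on both sides, were pseudogenes, and 1 further summit, scored 13.9, was found 1721 bp away. AT4G07205 and AT4G07210 overlap each other and share a summit scored 81.1 (chromosome 4, position 12475374). It is 4113 bp from any protein-coding gene end. NLP7, a regulator of the nitrate response and the nearest protein-coding gene of AT4G07210, had its own summits, scored 2.29 and 24.2.

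The other non-overlapping RNA genes with high scores lay closer to protein-coding genes, with distances taken from the RNA gene. Their summits were farther from any protein-coding gene end, at 2762 bp in AT1G60505 and 1059 bp in AT1G34844. AT4G04305 (score 83.1, chromosome 4, position 1274148) was 163 bp from AT4G02880. AT3G05535 (77.2, chromosome 3, position 10712614) was 344 bp from AT3G28570, and AT5G07325 (76.6, chromosome 5, position 19886079) 129 bp from AT5G49060. None of these 3 neighbours had a summit. AT1G60505 (73.3, chromosome 1, position 22297035) lies 398 bp from DRP4C, another dynamin-related gene, which had a summit scored 11.9. AT1G09573 (62.7, chromosome 1, position 28420570) lies 688 bp from GH9B7, a glycosyl hydrolase gene whose summit scored 3.78. AT1G34844 (57.3, chromosome 1, position 12751565) is 650 bp from APRL4, with a summit of 4.64, and AT4G08205 (51.5, chromosome 4, position 14546226) is 507 bp from AT4G29710, which had none. At 4 of these 10 genes, AT4G07210 included, the nearest protein-coding gene thus had summits of its own. In the whole class it had one for 40.2% of RNA genes with a summit and 36.3% of those without. The neighbours' scores were all lower, but the 10 genes were chosen for high scores, so this shows nothing about the pairs.

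The RNA genes with the most summits were long, from 3455 to 9515 bp. AT5G45472, of 9515 bp, runs over 4 protein-coding genes and had 4 summits, scored 9.07, 19.2, 3.58 and 6.58. AT1G17232 lies inside AT1G17230 and had 3, scored 18.0, 12.9 and 36.4, which are all the summits of that gene. AT1G08857, inside AT1G66880, had 3 of its 4, and the highest scored 28.7. In AT4G37553, 1 of 3 summits (25.5) was inside AT4G37560 and the others (9.97 and 12.9) lay in the part outside it. AT3G63445 had 2 summits inside CKX6, a cytokinin oxidase gene (11.6 and 9.67), and 1 outside it (16.1). AT1G17255 had 2 inside RLP3, a receptor-like protein gene (7.92 and 15.4), and 1 outside it (7.92).

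Some long RNA genes had no summit, although 88 of 125 overlapping and 4 of 5 non-overlapping RNA genes of 2000 bp or more had one. The longest overlapping RNA genes without one were AT3G27990 (5665 bp), AT2G44798 (5252 bp) and AT2G31751 (5136 bp, over the glucosyltransferase gene UGT74D1), and none of their main partners had one either. The longest non-overlapping ones without a summit were AT3G29644 (2546 bp), which lies in a gene-poor window, AT2G08220 (1562 bp) and AT3G20978 (1433 bp).

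Few well-studied noncoding RNAs carry either gene type in the table. Of 22 entries of a list of such RNAs, matched by locus identifier where the list gave one and otherwise by symbol, 2 loci are typed lncRNA, 11 are typed ncRNA, among them the trans-acting siRNA precursors, 3 are typed protein-coding and 6 were not matched. The 2 lncRNA loci are AT5G01675 and AT1G69572, which have no symbol in the table and were matched by identifier alone. AT1G69572 lies wholly inside AT1G69570 and had 2 summits, at positions 26161808 (score 11.2) and 26162485 (3.78) of chromosome 1, which are the only summits of AT1G69570. The antisense_RNA genes with a summit, given here after their values were seen, had scores from 2.46 to 47.0. The highest was at AT5G09865, which lies where MYBR1, a MYB factor gene, and CYP81G1, a cytochrome P450 gene, overlap. Next came AT3G08170 (31.5), over the immune receptor gene ZAR1. Of the 11 summits in antisense_RNA genes, 10 were on shared bases, and the exception was AT4G00975 (2.46).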

How the data were processed

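The authors handled reads with Bowtie2 and MACS2 on TAIR10, per the submitters' processing notes. Versions, threshold, pooling and use of the input are not stated there. The deposited file is 1 list of 1 bp summits whose score has the layout of a MACS2 −log10 p-value or q-value. Pooling decides whether replicates enter at all, and here they could not be compared. Depth is unknown.

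Genes, types and lengths came from the RefSeq table of TAIR10.1, of which only names, extents and neighbours were used. Both share coordinates as far as checked: 46.5% of summits lay inside a protein-coding gene within 300 bp of an end, and at most 20.7% after shifts of 500 to 5000 bp. Even placement is the mean count that covered length gives between the first and last gene of each chromosome. Gene-poor windows are the 37 of 240 windows of 500 kb with under 50% of the median density of protein-coding genes. Intervals are exact (Clopper-Pearson or Poisson). Counting was tested on simulated data. Tools were matplotlib 3.10.9, SciPy 1.17.1, pandas 2.3.3, numpy 2.4.6 and Python 3.11.15.

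Genes were named by rule: the 10 highest scores per class, up to 6 genes with 3 or more summits, the 3 longest without one per class, and listed RNAs. Members and lists were chosen with earlier results of these data known. No genome sequence was used, and how uniquely reads map was not examined.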

Additional observations from a re-analysis of the deposited data

How the results depend on the processing

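Of 37 values of the 8 main results under other settings, 26 stayed within the interval of the reported value. Some of the 26 could not move. The non-overlapping class holds no antisense_RNA gene and none under 200 bp. Leaving those out therefore returned the same ratio (1.09) and share (6.41%), and lncRNA alone the same median score (7.11). With summits at or above the median score only, 13.7% of overlapping and 2.91% of non-overlapping RNA genes had a summit. With 300 bp added at either end the shares were 42.3% and 10.1%. In gene-rich windows the ratio of the overlapping class to even placement was 1.99. For antisense_RNA genes alone that ratio was 2.01, their share 12.7% and their median score 7.36 (11 summits). They gave no value for the non-overlapping class, which holds none. The density ratio of shared bases to protein-coding bases without an RNA gene was 1.21 when weighted to the same distance from a gene end. The density of all RNA gene bases outside protein-coding genes was 5.09 times that of unannotated bases, and 3.83 times within 1000 bp of protein-coding genes. For non-overlapping RNA genes against unannotated bases within 1000 bp of them it was 4.12, a comparison chosen after seeing the data, as were the unshared bases of the same genes and merged RNA genes (23.7% and 6.37%). No paired analysis was possible because there is 1 list for both ChIP libraries, and for the same reason no replicate could be left out. Unknown depth limits what a missing summit shows.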
